A study of Mus musculus with 12 samples.

Results

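A set of 9 transcription factors that pattern the cerebral cortex, Nr2e1, Emx1, Emx2, Lhx2, Pax6, Nr2f1, Fezf2, Tbr1 and Eomes, were followed across mouse embryonic stem (ES) cells differentiating into neural progenitors. Every probe set annotated with a single symbol that was one of these names was taken, which gave 16 probe sets for 9 genes out of 45037 probe sets and 18193 named genes. Pax6 had 5 probe sets, Nr2e1, Emx1 and Eomes had 2 each, and the other 5 genes had 1 each.

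Total RNA was measured on 12 Affymetrix arrays in 6 groups of 2. A tetracycline-inducible rtTA-Dmrt5 line and its parental rtTA line were differentiated as a monolayer in N2B27, a serum-free medium for neural differentiation, and doxycycline (Dox, the drug that switches on rtTA-dependent transgenes) was given or withheld from day 5. The parental line was harvested at day 7 without Dox and with Dox. The rtTA-Dmrt5 line was harvested at day 7 without Dox, day 7 with Dox, day 9 without Dox and day 9 with Dox, so that Dox-treated cells had been exposed for 2 days at day 7 and 4 days at day 9. Both lines carry rtTA, and no parental arrays at day 9 were analysed here. The sources used here do not give the promoter that drives rtTA or say whether the rtTA-Dmrt5 line is a single clone. Nothing says that the 2 replicates of a group were grown apart, and p-values then cover only the spread from array to array, which may be technical.

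In the embryo the dorsal telencephalon is divided by gradients of transcription factors under the influence of signals from its edges. Emx2 and Nr2f1 are enriched towards the back of the cortex and Pax6 towards the front, Lhx2 gives cortical progenitors their identity against the neighbouring hem, and Nr2e1 maintains neural stem cells. Eomes marks the intermediate progenitors that leave the radial glia, and Tbr1 and Fezf2 act in the deep-layer projection neurons that follow. Dmrt5, whose gene symbol is Dmrta2, is itself a factor of the caudal and medial cortex and is known to act upstream of several of these genes.

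The deposited values were on a log scale, taken here as log2, with the median of each probe set set to 0, so a value gives a distance from that probe set's own median over the 12 arrays and says nothing of its level against another gene. A coarse level class was recovered from the rounding of the numbers. Nr2f1, Fezf2, Pax6 1437816_at and Emx1 1444216_at fell in the class of at least 8 on the log2 scale, 9 other probe sets lay between 4 and 8, and Nr2e1 1457289_at, Pax6 1425960_s_at and Pax6 1456342_at lay between 2 and 4. Of 11 neural progenitor markers, among them Sox1, Sox2 and Nes, all 11 had a probe set of level class at least 4 and 10 of at least 8. None of 7 blood and endothelium genes reached 4. The single probe set of Dmrta2, 1441107_at, went against the label of the induced arrays, since its difference with Dox was -2.42 ± 0.33 (SE) at day 7 (adjusted p = 0.00318, limma) and -2.61 ± 0.33 at day 9 (adjusted p = 0.000823). The sources used here do not give the position of this probe set relative to the transgene, so it does not check the induction, and "with Dox" below means the arrays labelled +Dox.

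Upstream sequences were read for all 9 members because a transcription factor is the induced agent. RefSeq entries for build GRCm38.p6 gave 12 start sites, and the 250 bases before each were searched on both strands for ACANTGT, the core shared by sites of DM-domain proteins such as Dmrt5, and for TAATTA, a core bound by many homeodomain proteins such as Lhx2 and Emx2. None of the 12 member sequences held ACANTGT, against 6.47% of 32851 promoters of the same length. TAATTA was found in 1 of the 12, that of Tbr1, with 2 matches, against 4.84% of promoters. The following sequences are shown, 5′ to 3′ and ending at the base before the start site, for the member that changed most, the member with a match, and the gene of the transgene for contrast, with matches in capitals.
Nr2e1 (chr10:42583591-42583840, - strand): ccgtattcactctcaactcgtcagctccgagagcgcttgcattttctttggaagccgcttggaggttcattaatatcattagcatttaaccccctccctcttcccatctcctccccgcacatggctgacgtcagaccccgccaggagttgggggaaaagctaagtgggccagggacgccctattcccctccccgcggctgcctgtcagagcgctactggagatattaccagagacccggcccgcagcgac
Tbr1 (chr2:61804203-61804452, + strand): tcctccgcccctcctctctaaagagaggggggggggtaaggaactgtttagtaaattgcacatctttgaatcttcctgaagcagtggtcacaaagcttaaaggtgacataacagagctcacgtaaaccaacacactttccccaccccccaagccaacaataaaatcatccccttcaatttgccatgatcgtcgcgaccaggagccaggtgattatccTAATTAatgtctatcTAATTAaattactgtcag
Dmrta2 (chr4:109977775-109978024, + strand): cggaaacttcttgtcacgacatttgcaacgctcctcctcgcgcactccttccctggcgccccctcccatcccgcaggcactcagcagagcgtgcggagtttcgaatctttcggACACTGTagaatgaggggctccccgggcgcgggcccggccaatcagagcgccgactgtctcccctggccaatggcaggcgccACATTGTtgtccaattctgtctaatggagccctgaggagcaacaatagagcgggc
The Tbr1 matches begin 33 and 18 bases before the start. The Dmrta2 sequence holds 2 matches to the DM-domain core, of which ACACTGT begins 137 bases and ACATTGT 55 bases before the start. These are letter matches in a short window and say nothing of binding.

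At day 7 of the rtTA-Dmrt5 line, Nr2e1, Nr2f1, Lhx2, Emx2 and Pax6 were lower with Dox, and Fezf2, Tbr1, Emx1 and Eomes did not pass the test. The comparison asks what 2 days of Dox did to the cells. Of the 16 probe sets, 6 passed in limma at an adjusted p of 0.05 over all 45037, and all 6 were lower, against 3.05% of all probe sets called 1.79% called lower and 1.26% called higher. The median over the 16 was -0.33, against 0.01 over all probe sets. Replicates of the Dox-labelled and Dox-free groups did not overlap for 50.8% of all probe sets, so separation alone is common here.

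Nr2e1, the orphan nuclear receptor also called Tlx, changed most. Its probe set 1434921_at read 1.71 and 1.99 without Dox and -1.61 and -1.74 with Dox at day 7. The groups were far apart and the replicates of each lay close together. The difference was -3.52 ± 0.25 (SE), an 11.5-fold lower value with an adjusted p of 0.000108, and it was the lowest difference among all 45037 probe sets. The second probe set, 1457289_at, in the dim level class, read 0.73 and -0.10 without Dox and 0.21 and -0.04 with Dox. Its groups overlapped and its difference of -0.23 (95% interval -0.89 to 0.43) did not pass, so the fall of Nr2e1 rests on the brighter of its 2 probe sets.

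Nr2f1, the nuclear receptor COUP-TFI that sets caudal area identity, read -0.04 and 0.01 without Dox and -1.79 and -2.18 with Dox. Both Dox-labelled arrays were below every other array of the series. The difference was -1.97 ± 0.13, 3.92-fold lower, with an adjusted p of 8.2e-05.

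Among the homeobox genes, Lhx2 read 0.49 and 0.52 without Dox and -1.09 and -1.19 with Dox. The fall was 1.65 ± 0.22 on the log2 scale, or 3.13-fold, with an adjusted p of 0.00267. Emx2 read 0.39 and 0.59 without Dox and -0.10 and -0.53 with Dox. The groups were separate but the Dox-labelled replicates were spread, and the difference was -0.81 ± 0.15 (adjusted p = 0.0172). This Emx2 call was lost without either Dox-free array (adjusted p = 0.0553 without replicate 1 and 0.149 without replicate 2) and without Dox-labelled replicate 2 (adjusted p = 0.14), and in the fit of the 2 groups alone (0.113). Emx1, its paralogue, differed by 0.29 ± 0.13 on 1441777_at (adjusted p = 0.327) and by 0.10 on 1444216_at (95% interval -0.38 to 0.59).

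Pax6, the paired-homeobox factor of radial glia and of the eye, was read by probe sets that differed in how far they moved. On 1419271_at the arrays read 0.02 and 0.09 without Dox and -1.68 and -2.06 with Dox, and on 1452526_a_at -0.04 and 0.36 without Dox and -1.18 and -1.02 with Dox. These gave differences of -1.93 ± 0.16 (adjusted p = 0.00021) and -1.26 ± 0.16 (adjusted p = 0.00228). The third, 1437816_at, of the highest level class, read 0.04 and 0.06 against -0.66 and -0.67, and its difference of -0.71 missed the threshold at an adjusted p of 0.0686. It passed with array weights (adjusted p = 0.0179), with the 2 groups alone (0.0383) and over probe sets of level class at least 4 (0.0456). The dim probe sets 1425960_s_at and 1456342_at differed by -0.43 (adjusted p = 0.161) and -0.11. All 5 Pax6 differences had the same sign, and 2 of the 5 passed.

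Fezf2, Tbr1 and Eomes did not pass at day 7. Fezf2, a zinc-finger gene of forebrain progenitors and of corticospinal neurons, read 0.58 and 0.65 without Dox and 0.71 and 0.51 with Dox, a difference of -0.01 with a 95% interval of -0.34 to 0.32. Tbr1 differed by -0.13 (95% interval -0.72 to 0.45), and the Eomes probe sets by 0.14 (-0.38 to 0.66) and 0.02 (-0.24 to 0.28). The intervals exclude a fall of the size of that of Nr2e1 or Nr2f1 for each of these 3 genes. The fit was also run on simulated data of the same spread. There 53 of 100 probe sets with a true difference of 1 were called, and 6 of 100 with 0.5. Only these were changed among 45037 probe sets, far fewer than the 1372 called at day 7. Fewer changed probe sets make the adjusted threshold stricter, so these shares do not give the chance of a missed change here. A change within the intervals above is not excluded. Markers of neurons moved in the same arrays: of 11 measured, 7 were lower and 1 was higher with Dox, against 5.41% of all genes called, 3.06% lower and 2.35% higher. The median value of the list's 24 probe sets of level class at least 4 ran from -0.86 to -0.84 with Dox and from -0.19 to -0.14 without. Fewer cells of a type and less RNA per cell cannot be told apart in these bulk arrays, and the part of neuron number in the member results was not tested.

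**Figure D1:**
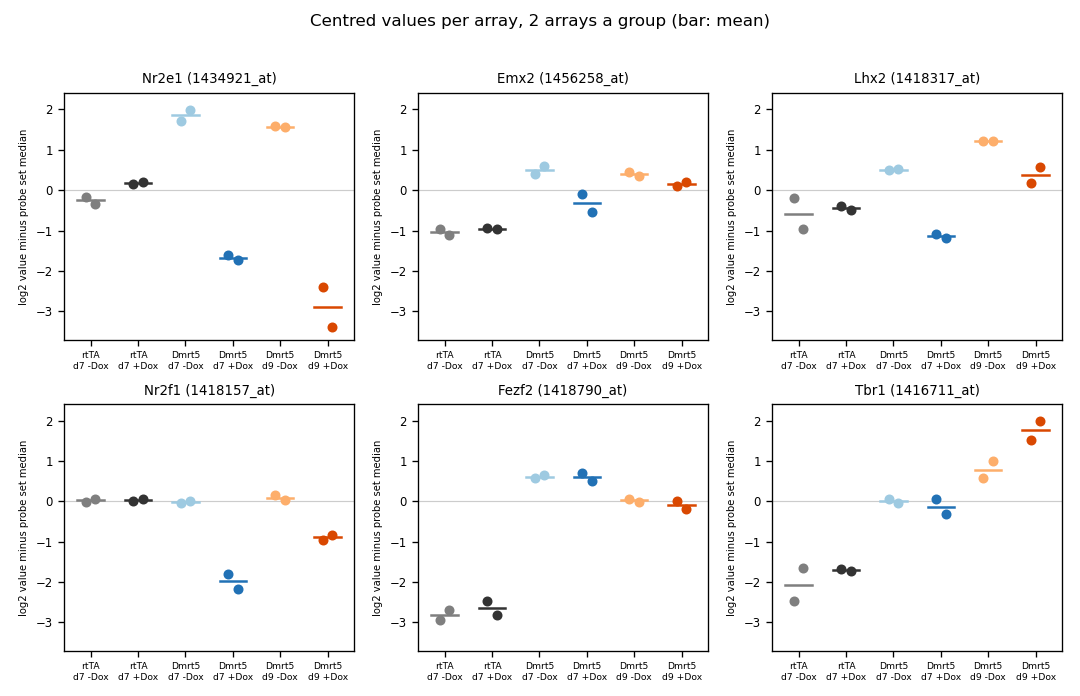
Centred log2 values (y axis, distance from the probe set's median) for the brighter Nr2e1 probe set and the 5 members with a single probe set on each array, by group (x axis), with points for arrays and bars for group means. Nr2e1, Nr2f1 and Lhx2 drop in the day 7 group labelled +Dox, while Fezf2 and Tbr1 separate the rtTA line, near -2.81 and -2.07 without Dox, from the rtTA-Dmrt5 line.

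In the parental rtTA line at day 7, no member passed with Dox, and neither did any other probe set, with 0 of 45037 called by limma (0% of all) and 2323 (5.16%) at an unadjusted p under 0.05. The 16 member differences ran from -0.42 to 0.43, the smallest adjusted p among them was 0.947, and 1 of the 16, Pax6 1452526_a_at (-0.42), had an unadjusted p under 0.05. Nr2e1 read -0.16 and -0.35 without Dox and 0.16 and 0.21 with Dox in that line, and Nr2f1 -0.01 and 0.07 against 0.01 and 0.05. Nr2e1 was thus 0.43 higher with Dox without passing, and the Nr2f1 arrays overlapped.

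The difference between the lines in the day 7 Dox response was tested directly as an interaction. Of the 16 probe sets 4 passed, all lower, against 1.04% of all probe sets called and 0.739% called lower. They were Nr2e1 (-3.96 ± 0.36, adjusted p = 0.00146), Nr2f1 (-1.97 ± 0.19, adjusted p = 0.00175), Pax6 1419271_at (-1.74 ± 0.23, adjusted p = 0.00692) and Lhx2 (-1.80 ± 0.31, adjusted p = 0.026). That of Lhx2 was lost without any of 6 of the 8 arrays, those of the rtTA-Dmrt5 line and the Dox-labelled rtTA pair, with adjusted p up to 0.112, and in the fit of the compared groups alone (0.0583). Emx2 had -0.88 with an adjusted p of 0.0984. The other Pax6 probe sets did not pass, with adjusted p from 0.149 (1452526_a_at) to 0.976 (1456342_at). Among them was the brightest, 1437816_at (-0.81, adjusted p = 0.216). The comparison shares the rtTA-Dmrt5 day 7 arrays with the within-line response, so these values are not separate evidence from it.

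**Figure D2:**
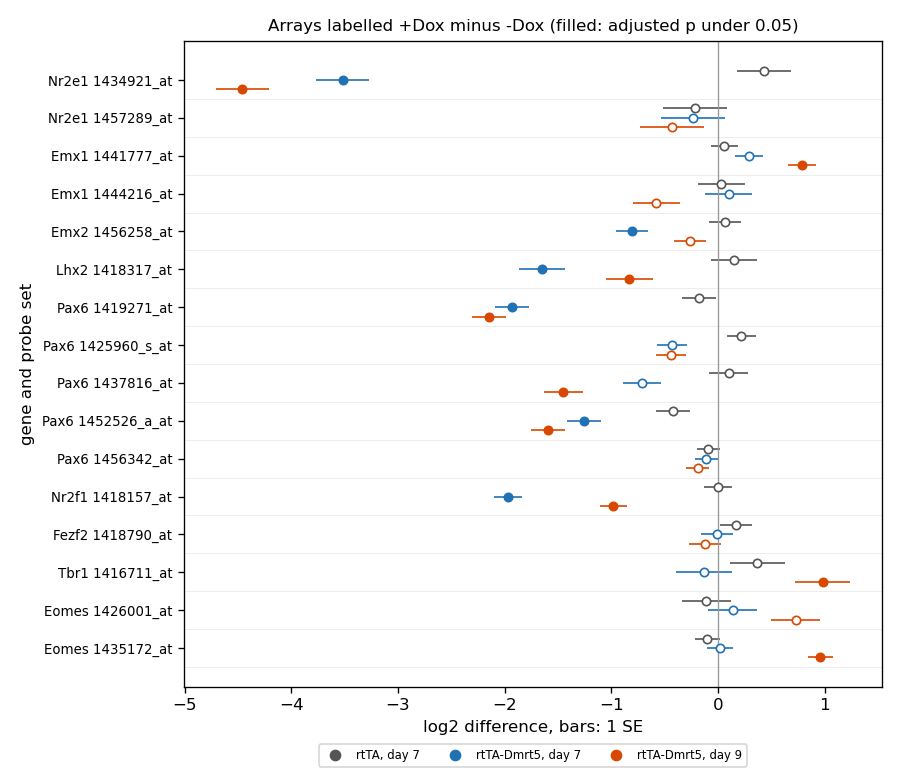
Log2 difference with Dox minus without Dox (x axis) with bars of 1 SE for the 16 member probe sets in the rtTA line at day 7 and the rtTA-Dmrt5 line at days 7 and 9, filled points passing the test. Nr2e1 1434921_at lies at -3.52 and -4.46 in the rtTA-Dmrt5 line and at 0.43 in the parental line, where it did not pass, and Eomes 1435172_at is at 0.02 and 0.96.

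At day 9, after 4 days of Dox, the lower genes were again Nr2e1, Pax6, Nr2f1 and Lhx2, and Tbr1 was higher, as were Eomes and Emx1 on 1 of their 2 probe sets each. Of the 16 probe sets 9 passed, 6 lower and 3 higher, against 18.3% of all probe sets called, 7.95% lower and 10.3% higher. The median over the 16 was -0.44, against -0.02 over all. Of the 6 probe sets called at day 7, 5 were also called here, all lower. The day 9 Dox-labelled arrays also stood apart in quality measures: their 11 hybridisation spike-in probe sets averaged -0.65 and -0.55, against 0.00 and 0.14 without Dox, and the 3′ minus 5′ value of the Actb control was 0.23 and 0.20 against 0.00 and -0.05. The part of these in the day 9 results was not tested.

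Nr2e1 1434921_at read 1.58 and 1.57 without Dox and -2.39 and -3.38 with Dox at day 9. The Dox-labelled replicates differed by about a log2 unit but both lay far below the Dox-free arrays. The difference was -4.46 ± 0.25, 21.9-fold lower (adjusted p = 1.33e-05), and again the lowest of all 45037. Its dim probe set 1457289_at did not pass. Replicates of the 2 groups did not overlap for 56.5% of all probe sets at this day.

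Pax6 was called on 3 of its 5 probe sets. On 1419271_at the values were -0.02 and -0.28 without Dox and -2.11 and -2.48 with Dox, a difference of -2.15 (adjusted p = 5.94e-05). The bright 1437816_at went from -0.06 and -0.04 to -1.31 and -1.69, a difference of -1.45 (adjusted p = 0.000746), and 1452526_a_at fell by 1.59 (adjusted p = 3e-04). The dim 1425960_s_at had -0.44 (adjusted p = 0.0511).

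Nr2f1 and Lhx2 were lower at day 9 too. Nr2f1 read 0.15 and 0.03 without Dox and -0.95 and -0.84 with Dox, a difference of -0.98 ± 0.13 (adjusted p = 0.00113). Lhx2 read 1.22 and 1.21 against 0.19 and 0.58, a difference of -0.83 ± 0.22 (adjusted p = 0.0259). The Lhx2 call was lost without either Dox-free array (adjusted p = 0.106 without replicate 1 and 0.0874 without replicate 2) and without Dox-labelled replicate 1 (0.158). Emx2 had -0.26 (adjusted p = 0.269), with a 95% interval of -0.58 to 0.07.

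The 3 genes with a probe set called higher were Tbr1, Eomes and Emx1. Tbr1, a T-box factor of deep-layer neurons, read 0.58 and 0.99 without Dox and 1.53 and 2.0 with Dox, a difference of 0.98 ± 0.26 (adjusted p = 0.0279). That call was lost without Dox-free replicate 1 (adjusted p = 0.167), without Dox-labelled replicate 2 (0.14) and with array weights (0.0541). Eomes, a T-box gene of intermediate progenitors and of early mesendoderm, read -0.36 and -0.35 without Dox and 0.56 and 0.64 with Dox on 1435172_at, a difference of 0.96 ± 0.12 (adjusted p = 0.000748). Its other probe set, 1426001_at, had 0.73 (adjusted p = 0.0573). Emx1 1441777_at read 0.01 and 0.01 without Dox and 0.92 and 0.67 with Dox (0.79 ± 0.13, adjusted p = 0.00323). The brighter Emx1 1444216_at read 0.67 and 0.04 against -0.33 and -0.13, a difference of -0.58 (adjusted p = 0.0933), so the 2 Emx1 probe sets had opposite signs.

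Because Eomes also marks mesendoderm, that list is given beside it. Of 8 measured mesendoderm genes, 4 were higher and 1 lower at day 9, and the median value of its 8 probe sets of level class at least 4 ran from 0.64 to 0.90 with Dox and from -0.17 to -0.11 without. Of 8 surface epithelium genes 7 were higher and none lower, and of 10 markers of undifferentiated ES cells 6 were higher and none lower, while 8 of 11 neuron genes were lower and none higher. The background by gene was 30.4% called at day 9, 12.4% lower and 18.6% higher. The part of these lists in the Eomes result was not tested.

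**Figure D3:**
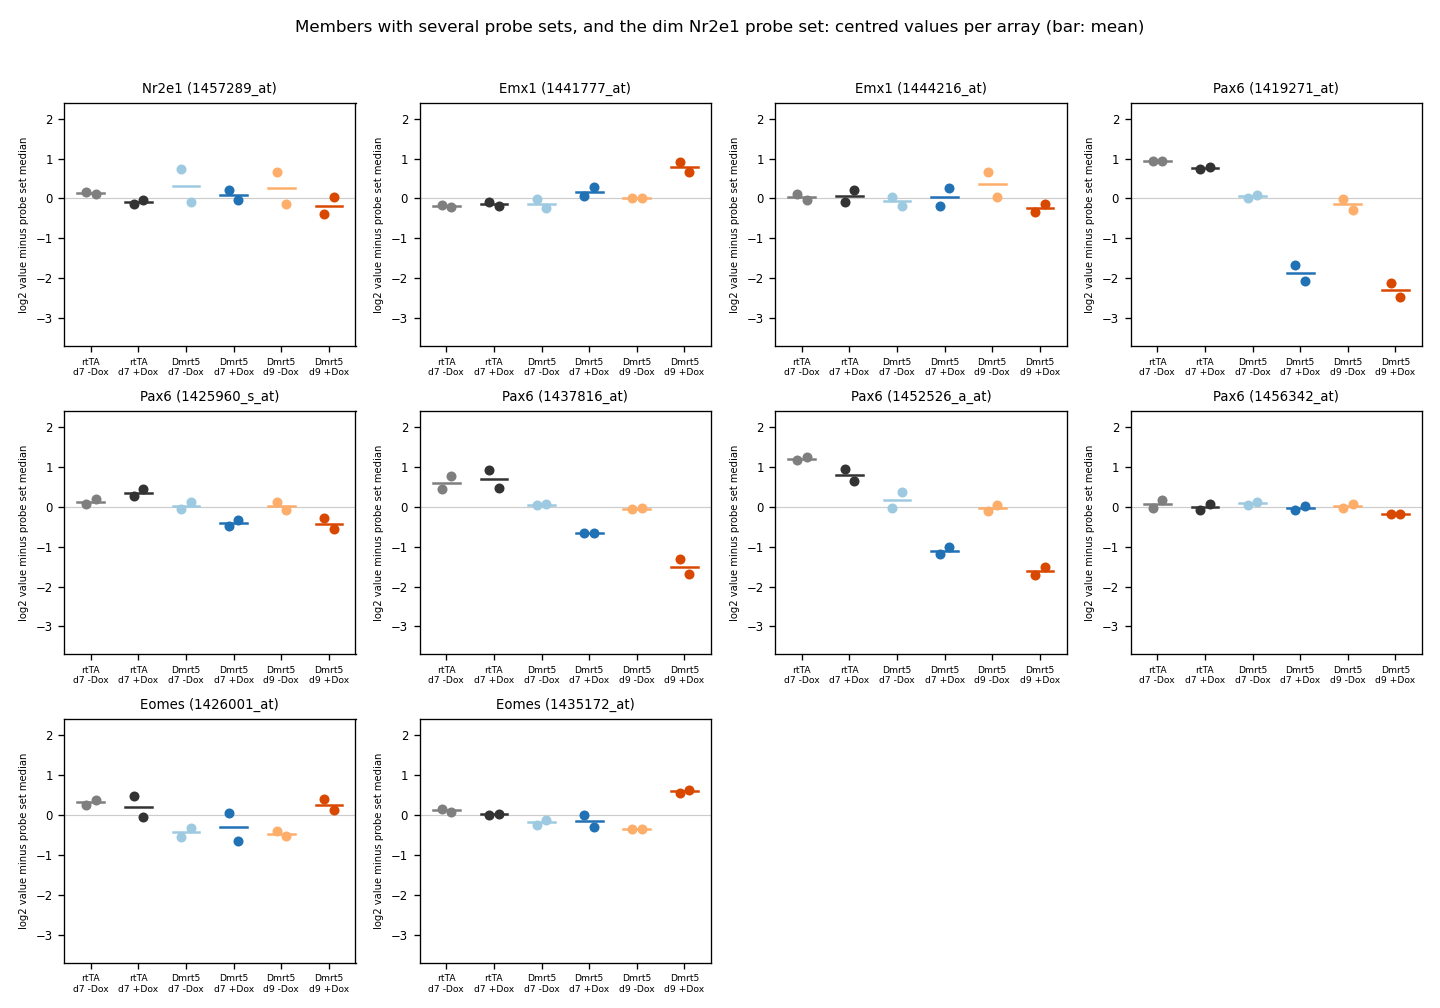
Centred log2 values per array (y axis) by group (x axis) for each probe set of Pax6, Emx1 and Eomes and for the dim Nr2e1 probe set, with points for arrays and bars for means. Pax6 1419271_at and 1452526_a_at fall furthest with Dox, Pax6 1456342_at stays between -0.18 and 0.18, and the 2 Emx1 probe sets part at day 9.

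Whether the Dox response differed between day 9 and day 7 was tested directly. Of the 16 probe sets 1 passed, Eomes 1435172_at, with 0.94 ± 0.17 (adjusted p = 0.0439), against 0.639% of all probe sets called and 0.324% called higher. That call was lost without any single array of the 8, with adjusted p from 0.0603 to 0.147, and with only the groups compared (0.0972). Nr2f1 had 0.99 ± 0.19 with an adjusted p of 0.0532, which became 0.031 over probe sets of level class at least 4. Tbr1 had 1.12 and Nr2e1 -0.93, and neither passed. For Pax6, Lhx2 and Emx2 no difference between the days was called either.

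From day 7 to day 9 without Dox in the rtTA-Dmrt5 line, only Fezf2 passed of the 16 probe sets, with -0.59 ± 0.15 (adjusted p = 0.039), against 7.65% of all probe sets called and 3.37% called lower, so the members' share is near the background. It read 0.58 and 0.65 at day 7 and 0.06 and -0.01 at day 9. The call was lost without any single array of the 4 (adjusted p from 0.124 to 0.179). Tbr1 had the largest difference, 0.78 (95% interval 0.20 to 1.36), and did not pass (adjusted p = 0.111). Lhx2 had 0.71 and passed in the fit of these 2 groups alone (adjusted p = 0.0314).

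With Dox, Tbr1, Lhx2 and Nr2f1 rose over the same interval and Nr2e1 and Fezf2 fell, while Eomes and Emx1 rose on 1 of their 2 probe sets each and Pax6 fell on 1 of 5. The difference between the intervals with and without Dox is the same contrast as the day difference in Dox response above, in which only Eomes 1435172_at passed. Of the 16, 8 passed, 5 higher and 3 lower, against 9.1% of all probe sets called, 5.18% higher and 3.92% lower. Tbr1 rose by 1.90 (adjusted p = 0.00241), Lhx2 by 1.53 (adjusted p = 0.00279), Nr2f1 by 1.09 (adjusted p = 0.00126), Eomes 1435172_at by 0.76 (adjusted p = 0.00428) and Emx1 1441777_at by 0.63 (adjusted p = 0.0164). The brighter Emx1 1444216_at had the opposite sign (-0.26, adjusted p = 0.526). Nr2e1 fell by 1.21 (adjusted p = 0.0167), Pax6 1437816_at by 0.84 (adjusted p = 0.0179) and Fezf2 by 0.70 (adjusted p = 0.0173). Tbr1, Lhx2 and Nr2f1 remained called without any single array and in the fit of these 2 groups alone, in which the other 5 were lost (adjusted p from 0.0561 for Pax6 to 0.105 for Nr2e1). Without Dox-labelled day 7 replicate 1 the calls of Nr2e1, Pax6, Fezf2 and Emx1 were lost (adjusted p from 0.0916 to 0.122). Those of Nr2e1 (0.0773), Pax6 (0.0973) and Fezf2 (0.0577) were also lost without day 7 replicate 2, that of Emx1 without day 9 replicate 1 (0.0896), and those of Pax6 (0.0892) and Fezf2 (0.08) without day 9 replicate 2. The day 9 spike-in and Actb values given above apply to this interval too.

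**Figure D4:**
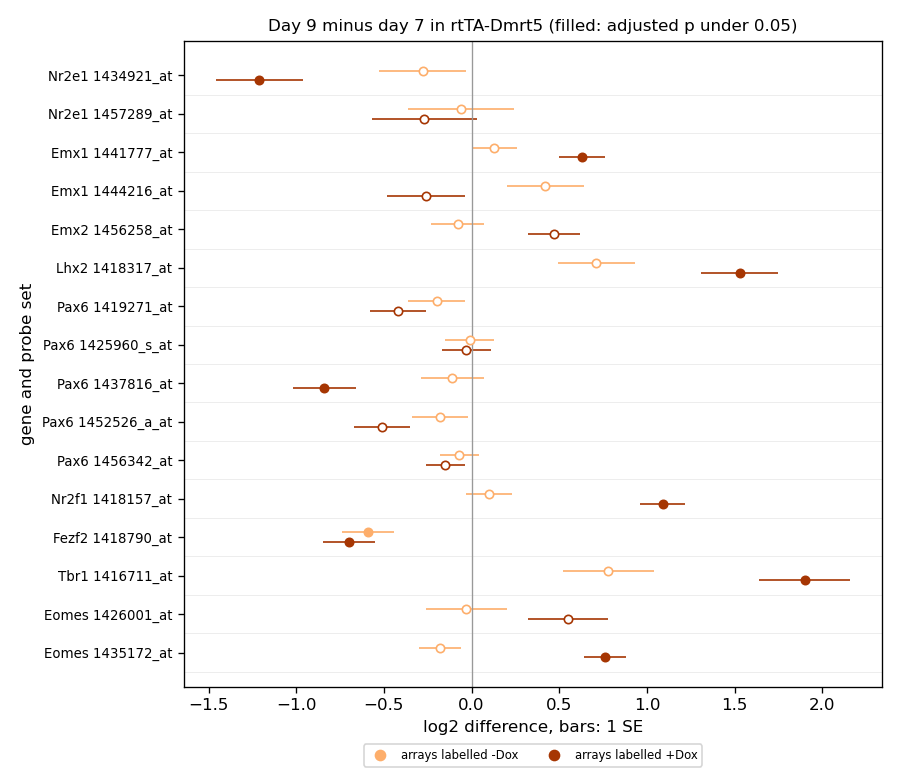
Log2 difference day 9 minus day 7 (x axis) with bars of 1 SE for the 16 member probe sets of the rtTA-Dmrt5 line without Dox and with Dox, filled points passing the test. Tbr1 (1.90) and Lhx2 (1.53) lie to the right with Dox and Nr2e1 (-1.21) to the left, while only Fezf2 (-0.59) passed without Dox.

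The lines also differed in these genes in cells not given Dox. At day 7 without Dox, 8 of the 16 probe sets passed between rtTA-Dmrt5 and rtTA, 5 higher and 3 lower in rtTA-Dmrt5, against 18.7% of all probe sets called, 8.72% higher and 9.95% lower. Fezf2 read -2.93 and -2.69 in rtTA and 0.58 and 0.65 in rtTA-Dmrt5, a difference of 3.42 ± 0.15 or 10.7-fold (adjusted p = 1.73e-06). Tbr1 read -2.48 and -1.66 in rtTA and 0.06 and -0.05 in rtTA-Dmrt5 (2.07, adjusted p = 0.000623). For these 2 genes the parental arrays were the lowest of the series.

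Nr2e1 (2.10, adjusted p = 0.000476), Emx2 (1.52, adjusted p = 0.000132) and Lhx2 (1.09, adjusted p = 0.00713) were also higher in rtTA-Dmrt5 without Dox. Emx2 read -0.95 and -1.11 in rtTA against 0.39 and 0.59. Pax6 was lower on 1452526_a_at (-1.05, adjusted p = 0.00182) and 1419271_at (-0.89, adjusted p = 0.00432), and Eomes 1426001_at was lower by 0.75 (adjusted p = 0.0494), a call lost without any single array of the 4 (adjusted p from 0.111 to 0.207). Nr2f1 differed by less than 0.1 between the lines. The Dmrta2 probe set was itself 1.92 higher in rtTA-Dmrt5 without Dox (adjusted p = 0.00323). Of the 10 ES cell markers, 9 were lower and 1 was higher in rtTA-Dmrt5, and the median value of that list's 12 probe sets of level class at least 4 ran from 0.49 to 0.60 on the Dox-free parental arrays and from -0.85 to -0.74 on those of rtTA-Dmrt5. The Actb 3′ minus 5′ value ran from -0.37 to -0.20 on the 4 parental arrays and from -0.13 to 0.07 on the day 7 rtTA-Dmrt5 arrays. The part of these in the line differences was not tested, and line and any shared handling of its cultures cannot be told apart.

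With Dox at day 7, 9 of the 16 probe sets passed between the lines, 3 higher and 6 lower in rtTA-Dmrt5, against 14.6% of all probe sets called, 7.83% higher and 6.81% lower. Fezf2 (3.25, adjusted p = 1.67e-06) and Tbr1 (1.57, adjusted p = 0.00264) were higher as they were without Dox, and Emx2 was higher by 0.64 (adjusted p = 0.0153), a call lost without either rtTA array or without rtTA-Dmrt5 replicate 1 (adjusted p from 0.0604 to 0.127). Nr2e1 stood 1.85 below the parental line (adjusted p = 0.000818), although it was above it without Dox. Nr2f1 was 2.02 lower (adjusted p = 9.3e-06), and 4 of the 5 Pax6 probe sets were lower, from -2.63 to -0.75. Lhx2 had -0.71 and missed the threshold (adjusted p = 0.0548). It passed with array weights (0.0449), with the compared groups alone (0.0206) and over probe sets of level class at least 4 (0.0384).

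Ordered by group mean, the members fell into different patterns. Fezf2 was at -2.81 and -2.64 in the parental groups without and with Dox, which differed by less than their spread, and between -0.09 and 0.62 in the 4 rtTA-Dmrt5 groups. Tbr1 was also lowest in the parental line (-2.07 and -1.70), then at -0.13 and 0.00 at day 7 of rtTA-Dmrt5, 0.78 at day 9 without Dox and 1.77 at day 9 with Dox. Nr2f1 was at -1.99 and -0.90 at days 7 and 9 of rtTA-Dmrt5 with Dox, and between -0.02 and 0.09 in the other 4 groups, which did not differ beyond their spread. Emx2 was at -1.03 and -0.96 in the parental line and -0.32 at day 7 with Dox, and reached 0.49 at its highest, at day 7 of rtTA-Dmrt5 without Dox.

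By the smallest root mean square difference over the 12 arrays, the genes whose probe sets most resembled each member were listed, 3 per member, with no test. A member with several probe sets was represented by 1 of its highest level class, which was 1437816_at for Pax6 and 1434921_at for Nr2e1. Nr2f1 was closest to Fat4 (0.17), Epha3 (0.19) and Thsd7a (0.22). Fezf2 was closest to 2 probe sets of Wnt8b (0.30 and 0.34), a signal of the cortical hem, and to Klf5 (0.36). Lhx2 was closest to Mir99ahg (0.25), to Lhx9 (0.31), a LIM-homeobox relative, and to Klhl35 (0.32). Pax6 was closest to Slc25a18 (0.23), Peli2 (0.26) and Plch1 (0.26), and Emx2 to Particl (0.19), Stat3 (0.20) and Apcdd1 (0.20). Nr2e1 was closest to Prima1 (0.61), Foxn4 (0.68) and Gm20083 (0.68), and Tbr1 to Qrich2 (0.43), Sstr2 (0.44) and Klhdc8a (0.45), all at larger distances. The group means of Emx1 1444216_at and Eomes 1426001_at, the probe sets used, spanned 0.58 and 0.79, under the minimum of 1 set for this listing, and those of Emx1 1441777_at and Eomes 1435172_at, not used, spanned 0.99 and 0.96.

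Other lists of patterning and neurogenesis genes were read as well. They were chosen with earlier results of these data known, so their shares above the background are not independent support. The partner list includes Dmrta2, the gene of the transgene. Of 17 measured partner factors of forebrain and area patterning, 9 had a probe set called lower with Dox at day 7 and 2 higher, against a gene background of 5.41%, 3.06% lower and 2.35% higher. The largest falls were of Dmrta1 (-2.49), Dmrta2 (-2.42), Otx1 (-2.39) and Six3 (-1.97), the latter 2 being homeobox genes of the anterior brain. At day 9, 10 were lower and 5 higher, against a gene background of 30.4%, 12.4% lower and 18.6% higher. Otx1 (-3.82), Six3 (-2.93) and Dmrta2 (-2.61) were among the lower. Nfib, a nuclear factor of later progenitors, was among the higher at 2.41. The median over the list's 50 probe sets was -0.11 at day 7 and -0.19 at day 9, against 0.01 and -0.02 over all.

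Of 19 measured factors of excitatory neurogenesis and cortical layers, 7 were lower and 2 higher at day 7, against 3.06% and 2.35% of all genes. At day 9, 8 were lower and 4 higher, against 12.4% and 18.6%, so the higher share is near the background. Neurod4 fell by 1.48 at day 7 (adjusted p = 0.00194), and Bcl11a and Bcl11b, zinc-finger genes of projection neurons, rose by 1.25 (adjusted p = 0.000782) and 1.06 (adjusted p = 0.0146). Between days 7 and 9 with Dox, 10 of the 19 were higher and none lower, against a gene background of 16%, 9.49% higher and 6.59% lower, among them Bcl11a (1.90), Bcl11b (1.73), Neurod2 (1.69) and Neurod6 (1.59), and Tbr1 rose over the same interval. Without Dox, 6 of the 19 were higher and 1 lower between these days. Of all probe sets 7.65% were called there, 3.37% lower. That is a share of probe sets, and shares by gene run larger (16% against 9.1% of probe sets with Dox). It is therefore not a like background for these gene counts. The median over the list's 61 probe sets was 0.26 without Dox and 0.24 with Dox. Of 13 patterning signals, 6 were higher and 2 lower at day 7, against 2.35% and 3.06% of all genes, with Wnt1 (2.83) and Fgf18 (1.85) the largest. At day 9, 7 were higher and 2 lower, against 18.6% and 12.4%, with Wnt5a at 2.99 and Fgf18 at 2.62. Among the signals Wnt8b did not pass at day 7 and had a difference of 3.1 between rtTA-Dmrt5 and rtTA without Dox (adjusted p = 9.9e-07). Of the partner factors 10 were higher and 3 lower in that comparison of the lines, and of the excitatory factors 7 were higher, 1 lower and 2 both, with Neurod1 at 2.72 and Neurog1 at 2.70, against a gene background of 30.4%, 15.2% higher and 15.6% lower.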

How the data were processed

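RNA of 12 samples was amplified from 5 ng with the Nugen Ovation V2 kit and biotin-labelled, per the labels' protocols. The deposited log2 values had been made with RMA, per the submitters' processing notes. The sources used here do not give the log base, which was taken as log2, and the values are centred on each probe set's median, which was found from the values. The centred values keep no absolute level. A coarse level class was read from the single-precision rounding of the values; on simulated data 94.1% of 5000 were read right and 2.48% wrong. Of 45101 probe sets, 64 controls were left out. Of the remainder 34945 had 1 symbol, 932 several and 9160 none.

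A mean per group was fitted on all 12 arrays with limma 3.58.1 in R 4.3.3 (6 residual and 3.92 prior degrees of freedom), 9 contrasts were tested, and p-values were adjusted by Benjamini-Hochberg over 45037 probe sets, with calls at 0.05. The fit was tested on simulated data, in which 3 of 44837 unchanged probe sets were called. Every member and every probe set was named, from other lists up to 4 genes a comparison by size of change, and the 3 most similar genes where group means spanned at least 1. The members and lists were chosen with earlier results of these data known. Replicate numbers did not pair the arrays. Alternatives were a replicate block, array weights, robust moderation, array medians set to 0, a level minimum, the compared groups alone, each array left out, and a gene-level fit, the last with a rule added after the data were seen. Depth has no count on arrays, and 2 arrays per group limit the precision.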

Additional observations from a re-analysis of the deposited data

Results flagged for a closer look

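There were 5 probe sets whose Dox response differed between the lines or between the days when this was tested directly. In the Dox response at day 7, rtTA-Dmrt5 minus rtTA, these were Nr2e1 1434921_at (-3.96 ± 0.36, adjusted p = 0.00146, limma), Nr2f1 (-1.97 ± 0.19, adjusted p = 0.00175), Lhx2 (-1.80 ± 0.31, adjusted p = 0.026) and Pax6 1419271_at (-1.74 ± 0.23, adjusted p = 0.00692). In the Dox response of rtTA-Dmrt5 at day 9 minus day 7, it was Eomes 1435172_at (0.94 ± 0.17, adjusted p = 0.0439). The Eomes value passed by a narrow margin and was lost in the gene-level fit (0.76, adjusted p = 0.109) and without any single array of the 8, and the Lhx2 value was lost without 6 of the 8. The Pax6 value rests on that probe set alone. By gene, Pax6 did not pass from its highest level class (-0.81, adjusted p = 0.133) but did over all its probe sets (-0.81, adjusted p = 0.014).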

How the results depend on the processing

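Of the 144 member differences between probe sets, the 46 called kept their sign under every alternative run on probe sets, while 33 that were not called changed sign on leaving out an array, among them those of Tbr1, of both Eomes probe sets and of the dim Nr2e1 probe set at day 7. Counts of member probe sets called were within 1.5 times the full fit except as follows. With only the groups compared, the day 7 to day 9 count with Dox was 3 in place of 8, that without Dox 2 in place of 1, and the day difference in Dox response 0 in place of 1; fewer arrays leave a less certain spread. The day difference was 2 over probe sets of level class at least 4 (fewer were tested) and 0 with the replicate block; the cause of the latter was not tested. Leaving out each array in turn gave 5 to 7 for days 7 to 9 with Dox, 0 without Dox, 0 to 1 for the day difference, 5 to 6 at day 7, 7 to 9 at day 9, 3 to 4 for the line difference, 0 for the parental response, 8 to 9 for the lines with Dox and 7 without. Replicate numbers are shared by the groups, but the correlation of same-numbered deviations ran from -0.17 to 0.17 over 15 pairs with 2 above 0.1. The replicate block gave 1157 calls at day 7 in place of 1372 over all probe sets, and changed no member call but Eomes 1435172_at in the day difference (adjusted p = 0.0699) and Eomes 1426001_at at day 9 (0.046). Over all probe sets the day 7 count was 775 with only the groups compared and 2666 with array weights, and the day 9 count 3426 with only the groups compared. By gene, from the brightest level class, Pax6 passed at day 7 (-0.71, adjusted p = 0.0381) and Nr2f1 in the day difference (0.99, adjusted p = 0.0231), whereas Eomes did not in the day difference (0.76, adjusted p = 0.109). Pax6 did not pass in the line difference at day 7 (-0.81, adjusted p = 0.133). Emx1 did not pass at day 9 (-0.58, adjusted p = 0.0694, a turned sign, or 0.10, adjusted p = 0.639, over all its probe sets) or over days 7 to 9 with Dox (-0.26, adjusted p = 0.462, or 0.18, adjusted p = 0.446). Dim probe sets of Nr2e1 and Pax6 limit what those probe sets can show.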
